A study of Mus musculus with 108 samples.

Results

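Microglia, the resident macrophages of the brain, were examined through 10 genes in bulk RNA-seq of wild-type (WT) and Cul3+/- mouse brain. The genes were the receptor Trem2 and its signalling adaptor Tyrobp, the lectin receptor Clec7a, the surface genes Tmem119, P2ry12, Cx3cr1 and Csf1r, and the chain genes C1qa, C1qb and C1qc of complement C1q. They were taken by symbol from a table of 53465 genes, and each symbol matched 1 Ensembl identifier. The 10 genes were chosen by their measured CPM levels over these groups and their WT-HET differences, so both are given as a description, and a p-value beside a member is no independent support for it.

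The same mice gave cortex (CX), cerebellum (CB) and hippocampus (HIP), and there were 6 WT and 6 Cul3+/- (HET) mice at each of 3 periods: the late embryo (E17.5), the first postnatal week (P7) and the adult (P35). Cul3 encodes the scaffold of a family of ubiquitin ligases. The HET mice carried 1 intact Cul3 copy and descended from 1 founder with a 1 bp frameshift insertion in exon 6 made by CRISPR/Cas9, bred for at least 4 generations to WT mice of the same C57BL/6N background, so a single edited line represents the genotype. By the study's description the groups held both males and females, and the labels do not tell which mouse was which. For 2 adult mice, 1 labelled with each genotype, the labels and the study's own sample sheet gave opposite genotypes, and all their libraries were left out, which left 5 WT and 5 HET adults. The 9 period-by-region datasets then held 102 of 108 libraries, in 18 groups of 6 (E17.5 and P7) or 5 (P35).

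Microglia enter the brain in the embryo and multiply and mature after birth. Mature, so-called homeostatic microglia express Tmem119, P2ry12 (an ADP receptor that guides their processes), Cx3cr1 (the receptor of the neuronal chemokine Cx3cl1) and Csf1r (the receptor of Csf1 and Il34, on which microglia depend for survival). Trem2 binds lipids and apolipoproteins and signals through Tyrobp to the kinase Syk, Clec7a binds beta-glucans and signals through Syk as well, and both are known from phagocytic microglia of developing axon tracts and of diseased brain. C1q starts the classical complement cascade and tags synapses in development, and microglia are its main source in the brain.

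On GRCm38, the 3 C1q genes lie side by side on the minus strand of chromosome 4, C1qb at chr4:136880129-136886187, C1qc at chr4:136889804-136893065 and C1qa at chr4:136895917-136898803. Trem2 lies at chr17:48346401-48354147 on the plus strand, Tyrobp at chr7:30413760-30417585 on the plus strand and Clec7a at chr6:129461591-129472779 on the minus strand. Tmem119 (chr5:113793729-113800516), P2ry12 (chr3:59216272-59262871) and Cx3cr1 (chr9:119901616-120069879) are on the minus strand. The annotated Cx3cr1 locus overlaps several other genes, P2ry12 lies within Med12l on the other strand, and Csf1r overlaps Hmgxb3 on the other strand. Whether the counting used strand is not stated, so reads of these overlapping genes may not be fully separated.

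Promoters of 6 of the 10 genes (Trem2, Clec7a, P2ry12, Cx3cr1, C1qb and C1qc) were taken from RefSeq (GRCm38.p6), and those of C1qa, Tyrobp, Csf1r and Tmem119 were not analysed here. The 250 bases before the transcription start are printed for the 4 genes that held the purine-rich box GAGGAA, which reads TTCCTC on the other strand, a sequence bound by ETS factors such as the macrophage regulator Spi1, so that the box can be seen in place in the genes whose levels the results turn on. They are written 5′ to 3′ on the strand of the gene, and capitals mark the box and, in Clec7a, the ETS-IRF composite, present here as TTTCATTTCC.
Trem2, chr17:48346151-48346400, plus strand: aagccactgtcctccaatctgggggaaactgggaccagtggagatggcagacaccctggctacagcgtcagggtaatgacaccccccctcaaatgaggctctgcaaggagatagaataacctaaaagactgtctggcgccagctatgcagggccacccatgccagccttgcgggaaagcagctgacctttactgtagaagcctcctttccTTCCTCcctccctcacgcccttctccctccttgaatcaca
Clec7a, chr6:129472780-129473029, minus strand: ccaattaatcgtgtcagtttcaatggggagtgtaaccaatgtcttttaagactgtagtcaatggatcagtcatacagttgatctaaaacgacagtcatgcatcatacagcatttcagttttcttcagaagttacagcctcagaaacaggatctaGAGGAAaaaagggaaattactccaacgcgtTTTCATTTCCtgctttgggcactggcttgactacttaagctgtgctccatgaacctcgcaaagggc
C1qb, chr4:136886201-136886450, minus strand: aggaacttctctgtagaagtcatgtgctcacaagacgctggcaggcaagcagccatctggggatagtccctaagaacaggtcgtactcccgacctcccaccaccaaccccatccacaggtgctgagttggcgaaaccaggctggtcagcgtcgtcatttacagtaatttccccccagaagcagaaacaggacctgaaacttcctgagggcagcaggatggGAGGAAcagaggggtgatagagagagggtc
C1qc, chr4:136892915-136893164, minus strand: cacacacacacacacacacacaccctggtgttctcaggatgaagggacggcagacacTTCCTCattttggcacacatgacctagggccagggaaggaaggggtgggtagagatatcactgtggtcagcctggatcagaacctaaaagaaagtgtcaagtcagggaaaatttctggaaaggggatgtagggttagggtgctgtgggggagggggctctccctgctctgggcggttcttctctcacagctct
The box lay 40 to 35 bases before the start in Trem2, 96 to 91 in Clec7a, 30 to 25 in C1qb and 193 to 188 in C1qc, and the composite lay 66 to 57 bases before the Clec7a start. Both strands were searched. The box was present in 23.3% of 32851 mouse promoters of the same length and the composite in 2.3%, while TATAAA, present in 12.4%, was in none of the members' 7 promoter entries (Clec7a has 2). P2ry12 and Cx3cr1 held neither the box nor the composite in this window. A match to these letters is a description of the sequence and not a measured binding site.

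Total counts per library ranged from 15126114 to 44411282 (median 32663960). Cul3 itself checked the labels: in each of the 9 datasets every HET library was below every WT library, with HET means of 50.4% to 61.3% of WT. Region labels were borne out by markers, with a summed level of 5 cerebellar genes of 2660 to 2860 CPM in adult WT CB against 15.3 to 19.3 in CX, and of 5 forebrain genes of 4.65 to 5.49 in CB against 267 to 307 in CX. The summed level of 6 choroid plexus genes varied between WT libraries, from 0.8 to 41.2 CPM in CX, 7.24 to 4731 in HIP and 3.09 to 3047 in CB over the 3 periods, and its part in the period and region differences below was not tested. Levels below are CPM, a gene's counts scaled to a common library size after TMM normalization over the 102 libraries, given as mean ± SD over mice, and CPM per kb of exon where genes are compared with each other. In bulk tissue, fewer microglia and less RNA of a gene per microglial cell cannot be told apart.

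All 10 genes were detected in every group, and 9 of them shared a pattern: lowest at E17.5, higher at P7 and, in CX and HIP, highest at P35. In WT CX the median log2 difference of the 10 genes was 1.97 from E17.5 to P7 and 1.06 from P7 to P35. In HIP it was 1.28 and then 0.87. The cerebellum differed after P7, since the median was 2.16 from E17.5 to P7 and -0.87 from P7 to P35. The median over all genes tested lay between -0.03 and 0.07 in each of these comparisons. Adult CB held the lowest WT mean of the 3 adult regions for 9 of the 10 genes, Clec7a being higher there than in CX, and the median was -1.56 against CX and -1.63 against HIP. At P7 the CB median was 0.47 against CX and 0.20 against HIP. The P7 regional medians rested partly on 1 WT mouse (replicate 4 as numbered in CX), without which they were 0.31 against CX and 0.07 against HIP. Changes with age were common: from P7 to P35, 33.2% of all genes rose and 34.5% fell in WT CX (FDR under 0.1). In WT CB 40% rose and 39.4% fell. The share of all genes without overlap between ages or regions was not computed, so non-overlap between these is given as a description of the members.

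**Figure D1:**
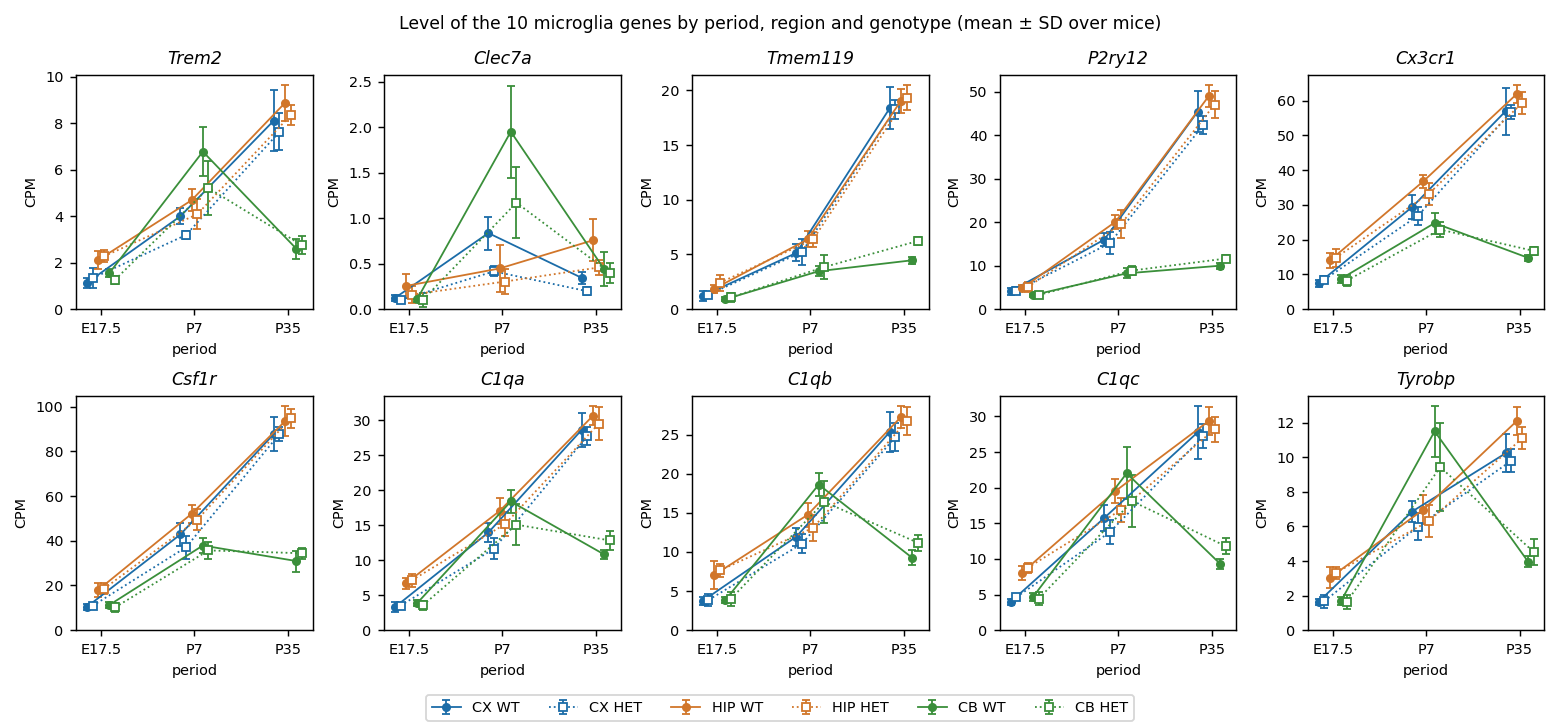
Level of each of the 10 genes (CPM, mean with SD as error bars) by period in CX (blue), HIP (orange) and CB (green), with WT as filled points and solid lines and HET as open points and dotted lines, n = 6 mice per point at E17.5 and P7 and 5 at P35. CX and HIP are highest at P35 for 9 genes, 8 genes have a lower mean in P35 than in P7 CB, and Clec7a has its highest point in P7 CB (1.95 CPM in WT).

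Tmem119 and P2ry12 had the highest adult-to-P7 ratios of the 10 genes in CX and HIP. Tmem119, a transmembrane protein used as a microglial marker, measured 1.21 ± 0.444 CPM in WT CX at E17.5 and 5.13 ± 0.778 at P7 (lowest 4.41, median 4.85, highest 6.17). The 5 adult WT mice measured 16, 18.4, 18.6, 17.7 and 21.3 CPM in CX, a mean 3.58 times that of P7, and the P7 and P35 libraries did not overlap. P2ry12 followed, with 4.1 ± 0.76 CPM at E17.5, 16 ± 1.5 at P7 (lowest 14.4, median 15.8, highest 17.8) and 45.5, 50.2, 49.0, 38.4 and 43.9 in the 5 adults, 2.84 times the P7 mean. In HIP the same genes reached 2.99 and 2.44 times their P7 means.

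In CB the adult means of these genes were only slightly above those of P7. Tmem119 went from 3.46 ± 0.481 CPM at P7 to 4.55, 4.03, 4.34, 4.95 and 4.44 in the 5 adult WT mice, a ratio of means of 1.29. P2ry12 went from 8.21 ± 1.17 to 10.3, 9.22, 10.8, 9.22 and 10.3, a ratio of 1.21, and the P7 and adult libraries overlapped. Adult CB therefore held 0.243 times the CX level of Tmem119 and 0.22 times that of P2ry12, with no overlap between the regions.

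Cx3cr1 and Csf1r were the most abundant members in CPM and differed from Tmem119 and P2ry12 in having a lower mean in adult than in P7 CB. Cx3cr1 measured 24.7 ± 3.03 CPM in WT CB at P7 (lowest 21.6, median 24.0, highest 30.1), while the 5 adults had 15.2, 13.9, 15.4, 13.9 and 15.4, below every P7 library. Over the same interval its CX level went from 29.4 ± 3.47 to 56.9 ± 6.79 CPM. Csf1r measured 37.9 ± 3.17 CPM in P7 CB and 30.9 ± 4.69 in adult CB, with overlapping libraries (highest adult 37.7, lowest P7 34.6), against 42.8 ± 5.28 and 87.8 ± 7.59 in CX.

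The ligands of these receptors are made largely by other cells, and 2 of them were far lower in CB. Il34 was at 45.0 ± 2.33 CPM in adult WT CX, 32.3 ± 2.21 in HIP and 3.41 ± 0.398 in CB (CB against CX, log2 difference -3.73, edgeR adjusted p = 5.74e-13). Cx3cl1 was lower in CB by a log2 difference of -4.04 in adults (edgeR adjusted p = 2e-13). Csf1, the other Csf1r ligand, was higher in adult CB than CX by 0.26 (adjusted p = 0.0291), at 19.4 ± 5.01 against 15.7 ± 2.11 CPM. At P7 the CB-against-CX differences of Il34 and Cx3cl1 were already -2.56 and -4.77.

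The 3 C1q chain genes had nearly the same profile. In WT CX they measured 3.29 to 3.98 CPM at E17.5, 12 to 15.7 at P7 and 25.3 to 28.7 at P35. In CB they reached higher means at P7 than in CX, 18.4 ± 1.58 for C1qa, 18.6 ± 1.49 for C1qb and 22 ± 3.66 for C1qc, or 1.32, 1.56 and 1.4 times the CX mean. The 6 C1qc values in P7 CB ran from 19.6 to 29.4 with a median of 20.8, the highest coming from replicate 4. The adult WT mice then had 9.99, 8.46, 8.64, 9.61 and 9.85 CPM of C1qc in CB, 0.423 times the P7 mean and below every P7 library. C1qa (0.588) and C1qb (0.497) were also lower in adult than in P7 CB, without overlap.

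Trem2 and Tyrobp had the same shape with a stronger cerebellar peak. Trem2 measured 1.55 ± 0.172 CPM in WT CB at E17.5 and 6.78 ± 1.07 at P7 (lowest 5.66, median 6.78, highest 8.58). In adult CB the WT mice had 3.10, 2.10, 2.91, 2.19 and 2.67 CPM, 0.383 times the P7 mean and below every P7 library. Over the same interval Trem2 in CX went from 4.00 ± 0.344 to 7.82, 8.84, 9.03, 5.90 and 8.96, so that adult CB held 0.32 times the CX level. At P7 the order had been the reverse, since CB was at 1.70 times the CX mean and no library of the 2 regions overlapped.

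Tyrobp, which also serves other activating receptors of myeloid cells, had the lowest adult-to-P7 ratio in CB of the 9 genes other than Clec7a. It measured 11.5 ± 1.47 CPM in P7 CB (lowest 9.55, median 11.1, highest 13.9), 6.75 times its E17.5 mean, and 4.08, 3.83, 3.55, 3.97 and 4.41 in the adults, 0.345 times the P7 mean. In CX its adult mean was 1.49 times the P7 mean, the smallest ratio of the 9 genes there. Ordered over the 9 WT groups, Tyrobp had its 3 highest means in P35 HIP (12.1 CPM), P7 CB (11.5) and P35 CX (10.2), whose libraries overlapped in turn. P2ry12 by contrast had adult HIP and CX clear of all other groups and P7 CB below P7 CX.

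Clec7a was the exception among the 10. It was near the limit of detection at E17.5, with 1 to 11 counts per library and WT means of 0.122 ± 0.0358 CPM in CX, 0.255 ± 0.134 in HIP and 0.113 ± 0.0404 in CB. At P7 it measured 1.95 ± 0.507 CPM in WT CB (lowest 1.38, median 1.84, highest 2.86; 50 to 91 counts), 0.836 ± 0.182 in CX (lowest 0.617, median 0.813, highest 1.11) and 0.447 ± 0.259 in HIP (lowest 0.113, median 0.373, highest 0.81). P7 CB was the highest of its 9 WT groups and did not overlap the next, P7 CX, while each lower neighbour in the order overlapped. The P7 CB mean was 17.3 times the E17.5 mean, against 2.56 to 6.75 times for the other 9 genes.

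Adult Clec7a levels were lower than at P7 in CX as well as in CB. The 5 adult WT mice had 0.306, 0.35, 0.433, 0.265 and 0.360 CPM in CX, each below the lowest P7 library, a ratio of means of 0.41 where the other 9 genes had 1.49 to 3.58. In CB they had 0.649, 0.481, 0.213, 0.274 and 0.570, 0.224 times the P7 mean and again below every P7 library. In HIP the adult values of 0.448, 0.863, 0.969, 0.572 and 0.935 gave a ratio of 1.7, and the P7 and P35 libraries overlapped.

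**Figure D2:**
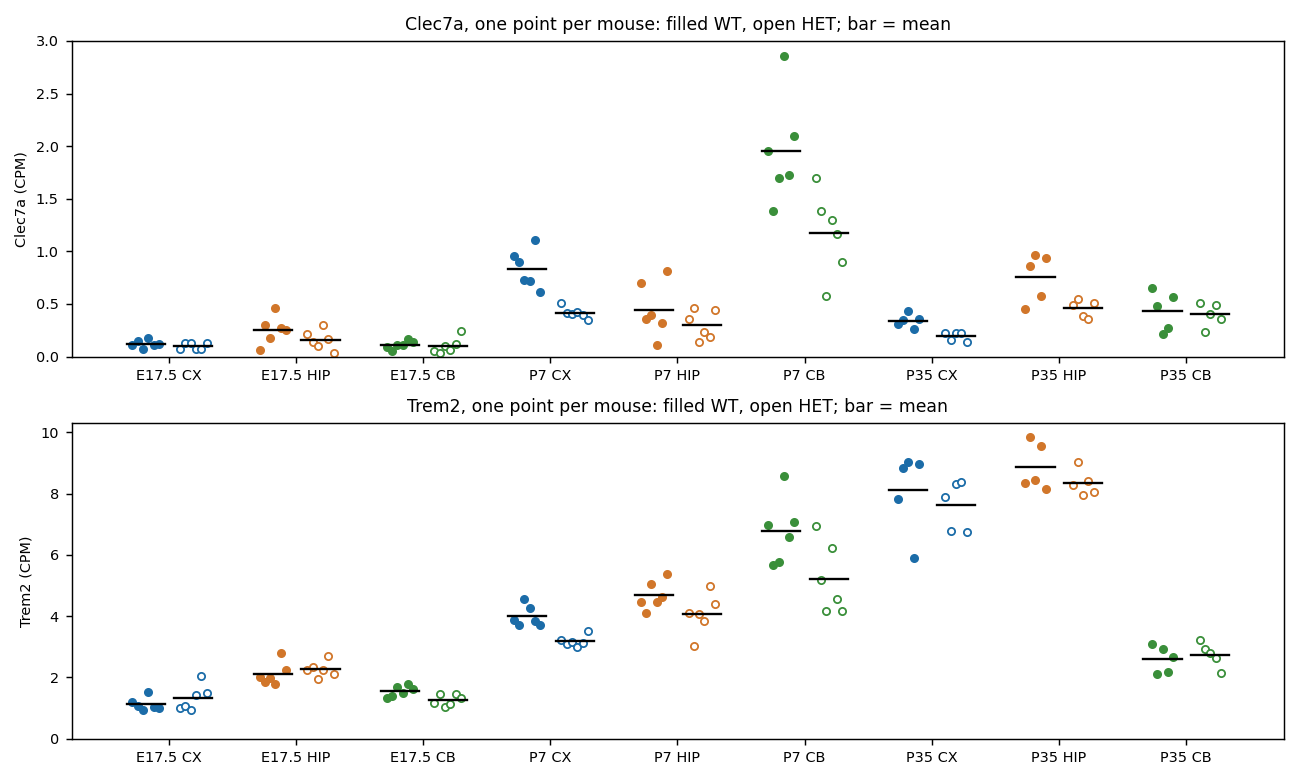
Clec7a (top) and Trem2 (bottom) in CPM, 1 point per mouse, by period and region, with WT filled, HET open and a bar at each group mean. Clec7a is highest in P7 CB. Its WT mean is above the HET mean in each of the 9 datasets, which are not independent, since each mouse gave several. In P7 CX the WT and HET points of both genes do not overlap.

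Compared per kb of exon, the mix of the 10 genes differed between immature and adult tissue. The length was that of all annotated exons of a gene merged, such as 1.04 kb for C1qa, 1.931 for C1qc and 4.946 for Trem2. Ranks and shares between genes therefore depend on which transcripts are annotated. In WT P7 CB the leading members were C1qa (17.7 CPM per kb), Tyrobp (17.3) and C1qb (17.1), with P2ry12 at 3.23 and Tmem119 at 1.5. In adult CX the leaders were C1qa (27.6), C1qb (23.3) and P2ry12 (17.8), with Tyrobp at 15.4 and Clec7a last at 0.13. As a share of the summed per-kb level, P2ry12 was 3.92% in P7 CB, 9.44% in P7 CX and 13.1% in adult CX, and Tmem119 was 1.84%, 3.33% and 5.85%. Tyrobp went the other way, at 20.9%, 15.5% and 11.3%, as did Clec7a, at 0.89%, 0.48% and 0.10%.

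Clec7a and Trem2 were also set against the mean log2 CPM of the other 8 genes in the same library, which takes out what the 8 share. The Clec7a log2 ratio averaged -2.91 in WT P7 CB, -4.03 in P7 CX and -5.28 in P7 HIP, and -4.37, -6.28 and -5.41 in adult CB, CX and HIP. Trem2 stayed within a narrower band, at -1.13 in P7 CB, -1.83 in P7 CX and -1.88 in P7 HIP. Its adult WT means ran from -1.94 to -1.88, and its E17.5 WT means from -1.64 to -1.22.

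**Figure D3:**
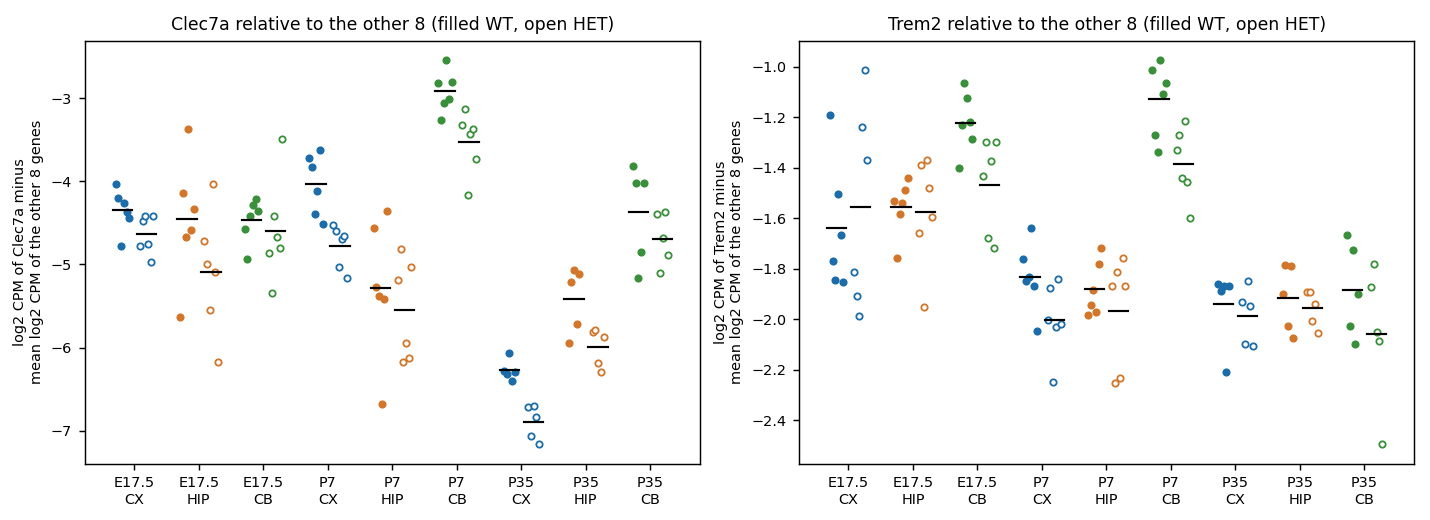
Log2 CPM of Clec7a and of Trem2 minus the mean log2 CPM of the other 8 genes in the same library, 1 point per mouse, by period and region, WT filled and HET open. Clec7a spans from -2.91 (WT mean, P7 CB) to -6.28 (WT mean, P35 CX), and Trem2 varies less.

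The other microglia genes, fitted in the same whole-table tests (FDR under 0.1), showed the same regional split. These genes, and those of the further lists below, were grouped by what is known of them. The lists were, however, chosen with earlier results of these data known. Their counts are therefore a description and no independent support for the pattern of the members. From P7 to P35 in WT CX, 12 of 14 homeostatic genes rose and 1 fell (median log2 difference 1.06), against 33.2% of all genes rising and 34.5% falling. The rises included Selplg (2.84), the phagocytic receptor Mertk (2.19), Il10ra (1.67) and Siglech (1.38). Of 18 genes shared by microglia and other macrophages 14 rose and 1 fell (median 0.53), led by the protease Ctss (2.12) and the integrin Itgam (1.76). In HIP 12 of 14 homeostatic genes rose and the other 2 did not pass, and of the shared genes 14 rose and 1 fell (31.3% and 31.5% of all genes).

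Genes known from amoeboid and axon-tract-associated microglia went the other way in CX, where 2 of 12 tested rose and 8 fell (median -1.02). The falls included the lipase Lpl (-2.97), the galectin Lgals3 (-2.03), the integrin Itgax (-2.02) and the fatty acid carrier Fabp5 (-1.68), while Csf1 (0.71) and Apoe (0.67) rose. Several of these, such as Lpl, Apoe, Cd9, Cd63, Fabp5 and Csf1, are also made by other brain cells. In HIP 3 of 12 rose and 6 fell (median -0.76).

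In CB, where 40% of all genes rose and 39.4% fell from P7 to P35, 4 of 14 homeostatic genes rose and 7 fell (median -0.26). Il10ra (2.60), Mertk (1.51) and Selplg (1.48) were among those that rose, and Fcrls (-1.80), Tgfbr1 (-1.44) and Slc2a5 (-1.22) were among those that fell. Of the shared macrophage genes 13 of 18 fell and the other 5 did not pass (median -1.05), and those that fell included the transcription factor Spi1 (-1.82) and the adaptor Fcer1g (-1.80). Of the amoeboid list 1 of 13 rose and 11 fell (median -2.13), led by Lpl (-3.86), Itgax (-3.80), the chemokine Ccl3 (-2.79) and Fabp5 (-2.58), with Igf1 at -2.13 and Gpnmb at -1.70. Of the Trem2 and Clec7a signalling list 3 of 11 rose and 7 fell, with the kinase Syk at -1.86 and its substrate Plcg2 at -1.15, and with Clu (2.17) and Malt1 (1.55) higher. Of the complement genes beside C1q, 7 of 21 rose and 6 fell in CX, where 33.2% of all genes rose and 34.5% fell. In CB 7 of 22 rose and 7 fell, against 40% and 39.4% of all genes.

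**Figure D4:**
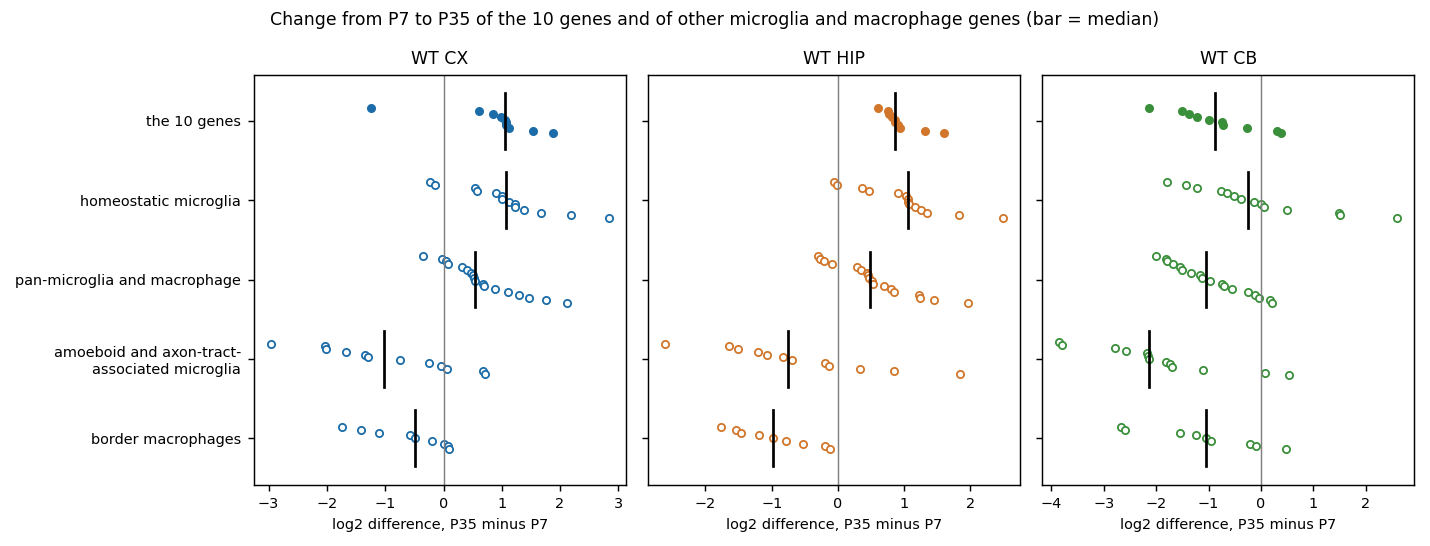
Log2 difference between P35 and P7 in WT CX, HIP and CB for the 10 genes and for 4 lists of other genes, 1 point per gene, with a bar at each median. The medians of the 10 genes are 1.06 in CX, 0.87 in HIP and -0.87 in CB, and the median of the amoeboid list lies below 0 in each of the 3 regions.

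Regional differences between CB and CX were counted for the same lists at P7 and in adults, and those at E17.5 are not reported here. At P7, 4 of 14 homeostatic genes were higher in WT CB than CX and 8 were lower (median -0.44), and 10 of 13 amoeboid genes were higher and 1 lower (median 1.09), against 44.1% and 38.8% of all genes. Cd63 (2.46), Lgals3 (2.34), Cd9 (2.32), Ccl3 (1.89), Spp1 (1.77) and Gpnmb (1.64) were higher in CB, and Lpl (-2.50) was lower. In adults 13 of 14 homeostatic genes and 17 of 18 shared macrophage genes were lower in CB (medians -1.44 and -1.45; 36.5% of all genes lower, 38.9% higher). The exception among the homeostatic genes was Il10ra, higher in CB by 0.94. Of the amoeboid list 5 of 11 were higher in adult CB and 3 lower (median 0.18), with Lgals3 at 2.20 and Spp1 at 1.22.

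Border macrophages, which line the meninges and vessels and are carried over with the tissue, were followed by 9 genes of their own. From E17.5 to P7 all 9 rose in CX and in CB (41.3% and 35.7% of all genes rose there), and from P7 to P35 4 fell in CX, 6 in HIP and 6 in CB, while the others did not pass. At P7 6 were higher in CB than in CX. C1qa, C1qb, C1qc, Csf1r, Cx3cr1, Tyrobp and Trem2 can also be expressed by these cells, and their part in the levels above was not tested.

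Genotype was compared within each dataset. In none of the 9 datasets did any of the 10 genes pass FDR under 0.1 in edgeR's quasi-likelihood test, in which Cul3 was the single gene called. It made up 0.00603%, 0.00586% and 0.00568% of the genes tested in E17.5 CX, HIP and CB, 0.00566%, 0.00563% and 0.0057% at P7 and 0.00569%, 0.00584% and 0.00584% at P35. DESeq2 also called 0 members in 8 of the datasets and called Tmem119 and C1qc in adult CB, where it called 218 of 15779 genes with an adjusted p (1.38%). At an unadjusted p under 0.05 the counts of members were 0 in each E17.5 dataset and 0 and 1 in P35 CX and HIP. They were 4, 2 and 3 in P7 CX, HIP and CB, all lower in HET, and 6 in P35 CB, all higher in HET. At that p, 1.7%, 1.6% and 1.11% of all genes were lower in HET in P7 CX, HIP and CB. In P35 HIP 2.84% of all genes were lower, and in P35 CB 5.71% were higher. Clec7a had too few counts to be tested at E17.5 and in P35 CX.

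P7 CX was the P7 dataset in which WT and HET libraries of members did not overlap, for Clec7a and Trem2. Clec7a measured 0.617 to 1.11 CPM in WT (median 0.813; 21 to 41 counts) and 0.343 to 0.508 in HET (median 0.412; 11 to 15 counts). The 6 HET mice were thus below all 6 WT mice, with a log2 fold change of -1.004 (SE 0.183, edgeR adjusted p = 0.648). Trem2 measured 3.70 to 4.56 CPM in WT (median 3.87) and 2.98 to 3.53 in HET (median 3.15), again without overlap (-0.32, SE 0.0822, edgeR adjusted p = 0.9). Genes whose HET libraries all lay below WT made up 0.0736% of those tested. C1qa was at 14 ± 1.34 CPM in WT and 11.6 ± 1.51 in HET (-0.26, SE 0.089, adjusted p = 0.9) with overlapping libraries, and Csf1r differed by -0.20 (adjusted p = 0.9). In all, 9 of 10 members had a log2 fold change below 0 (50% of all genes), with a median of -0.19, and Tmem119 was at 0.02.

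Set against the other 8 genes of the same library, the Clec7a ratios of WT and HET in P7 CX nearly touched, and those of Trem2 overlapped. The Clec7a log2 ratio ran from -4.517 to -3.62 in WT and from -5.17 to -4.527 in HET, with group means of -4.03 and -4.78. At the few Clec7a counts of these libraries so small a gap is no clear separation. The share of all genes that stay apart in such a ratio was not computed. For Trem2 the ratio ran from -2.05 to -1.64 in WT and from -2.25 to -1.84 in HET, which overlapped, with means of -1.83 and -2.002. In the other 8 datasets the Clec7a mean was likewise lower in HET than in WT, by CPM and by this ratio. These are not separate observations, since each mouse gave cortex, cerebellum and hippocampus. Clec7a had too few counts to be tested at E17.5 and in P35 CX, and in P35 CB it differed by -0.172 (SE 0.323). It was also chosen partly by its WT-HET differences. How many of all genes are lower in HET in every dataset is not given, so this agreement is a description.

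Among other genes of the P7 CX dataset, 0 of the listed genes passed the FDR threshold. At an unadjusted p under 0.05, 4 of 12 amoeboid genes were lower in HET (1.7% of all genes), namely Gpnmb (-1.11, SE 0.34, adjusted p = 0.9), Spp1 (-0.74), Itgax (-0.53) and Igf1 (-0.26). So were 5 of 18 shared macrophage genes, 2 of 14 homeostatic genes (Gpr34 and Fcrls) and Folr2 (-0.90) of the border macrophages. Other measures differed in the same libraries. Summed oligodendrocyte markers ran from 143 to 190 CPM in WT and from 117 to 165 in HET, and the mitochondrial share of counts from 1.49% to 2.67% and from 1.41% to 1.79%. Summed border macrophage markers ran from 46.0 to 62.2 and from 41.7 to 64.1 CPM, and choroid plexus markers were low in both, at most 41.2. The part of oligodendrocyte content or RNA quality in the Clec7a and Trem2 differences was not tested.

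**Figure D5:**
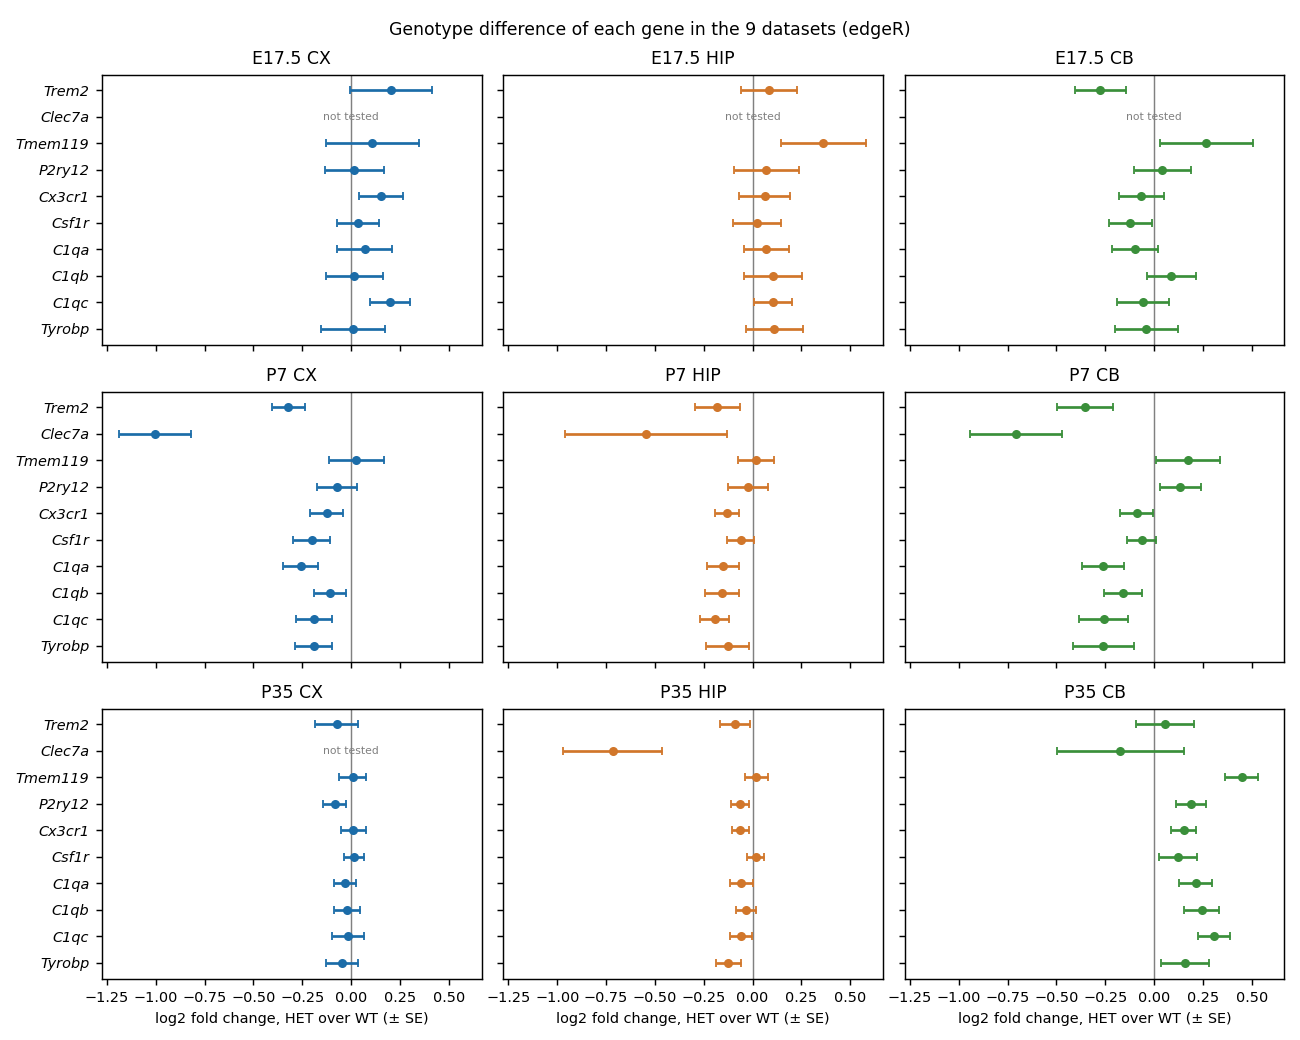
Log2 fold change of HET against WT with its SE for each of the 10 genes in the 9 datasets (1 panel each). The genes lie mostly below 0 at P7 and mostly above 0 in P35 CB, Clec7a lies below 0 wherever it was tested, and no gene passed FDR under 0.1.

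P7 CB had the same leading genes with more scatter. Clec7a measured 1.38 to 2.86 CPM in WT (median 1.84) and 0.579 to 1.70 in HET (median 1.23), overlapping (-0.71, SE 0.234, edgeR adjusted p = 0.915). Trem2 measured 5.66 to 8.58 and 4.15 to 6.93 (-0.36, SE 0.144, adjusted p = 0.978). In all, 8 of 10 members had a log2 fold change below 0 (48.3% of all genes), and 3 had p under 0.05 (1.11% of all genes in that direction). Gpnmb again was lower at an unadjusted p (-0.75, SE 0.21, adjusted p = 0.915). Choroid plexus markers summed to 5.31 to 1480 CPM in WT (median 7.54) and 5.59 to 2730 in HET (median 1468), so the groups differed in this content, and its part in the values of P7 CB was not tested.

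In P7 HIP 9 of 10 members had a log2 fold change below 0 (47.5% of all genes), with a median of -0.14. C1qc (-0.19) and Cx3cr1 (-0.13) had p under 0.05 (edgeR adjusted p = 0.833 for both), as did 1.6% of all genes in that direction. Clec7a was at -0.55 with an SE of 0.416. Choroid plexus markers summed to 11.4 to 163 CPM in WT and 8.68 to 4242 in HET, and their part was not tested.

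In the adult forebrain Clec7a had the largest relative difference between WT and HET means of the 10 genes. The HET mice measured 0.228, 0.157, 0.227, 0.223 and 0.143 CPM in CX (4 to 8 counts), each below the 5 WT mice (7 to 14 counts). At so few counts this is a difference of several reads per library. All HET libraries lay below WT in 0.381% of the genes tested in that dataset. Clec7a had too few counts to be among them, so that share is no background for it. In HIP the HET mice measured 0.488, 0.550, 0.382, 0.354 and 0.514, overlapping WT (-0.72, SE 0.254, edgeR adjusted p = 0.796). Choroid plexus markers in HIP summed to 23.1 to 2229 CPM in WT (median 61.0) and 32.2 to 269 in HET (median 37.4), all 5 of those tested were lower in HET at an unadjusted p under 0.05, and their part in the Clec7a difference was not tested. The other 9 genes had log2 fold changes between -0.09 and 0.02 in CX and between -0.13 and 0.02 in HIP. The log2 fold change was below 0 for 6 of 9 tested members in CX (48% of all genes) and 8 of 10 in HIP (51.3%). In HIP Clec7a was the single member with p under 0.05 (2.84% of all genes in that direction).

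Adult CB differed in sign from P7. The log2 fold change was above 0 for 9 of 10 members (median 0.17), Clec7a excepted, while it was below 0 for 49.7% of all genes. Tmem119 measured 5.86, 5.80, 6.62, 6.43 and 6.42 CPM in HET, each above the 5 WT values of 4.03 to 4.95 (0.45, SE 0.0848, edgeR adjusted p = 0.293). C1qc measured 12.6, 10.5, 11.6, 11 and 13.1, above the WT values of 8.46 to 9.99 (0.31, SE 0.0817, adjusted p = 0.293). All HET libraries lay above WT in 2.36% of the genes tested. C1qb (0.24), C1qa (0.21), P2ry12 (0.19) and Cx3cr1 (0.15) also had p under 0.05, as did 5.71% of all genes in that direction, with overlapping libraries.

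Other contents of the adult CB libraries moved with genotype too. Border macrophage markers summed to 26.3 to 32.8 CPM in WT and 33.3 to 38.1 in HET, without overlap. Oligodendrocyte markers summed to 2505 to 5600 and 4693 to 5946 CPM, choroid plexus markers to 11.9 to 3047 and 17.6 to 2082, and the mitochondrial share ran from 4.51% to 7.86% in WT and from 3.18% to 4.82% in HET. At an unadjusted p under 0.05, Slc2a5 (0.73) and Selplg (0.40) of the homeostatic list and Mrc1 and Stab1 of the border list were higher in HET. The part of these contents in the differences of the 10 genes was not tested.

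The difference of the genotype effect between successive periods was fitted in each region after the values had been seen. No gene passed FDR under 0.1 in any of the 6 fits (0%). For P35 against P7 in CB, at an unadjusted p under 0.05, 6 of 10 members had a higher effect at P35 (8.52% of all genes in that direction), namely C1qc (0.60, SE 0.174, edgeR adjusted p = 0.264), C1qa (0.51, SE 0.151, adjusted p = 0.264), Tyrobp (0.45), Trem2 (0.45), C1qb (0.44) and Cx3cr1 (0.28). In CX and HIP no member had p under 0.05 for P35 against P7. For P7 against E17.5 a lower effect at P7 with p under 0.05 was found in CX for 4 of 10 members (1.3% of all genes in that direction), C1qc (-0.41), Trem2 (-0.54), C1qa (-0.35) and Cx3cr1 (-0.30), in HIP for C1qc (-0.30; 1.38% of all genes) and in CB for none. Both intervals share the P7 mice.

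At E17.5 no member had p under 0.05 in the main fit, which does not use the pairing of same-numbered samples in E17.5 CX. A replicate block, which fits that pairing, called no member there. All 9 tested members had a log2 fold change above 0 in CX and HIP (medians 0.07 and 0.09), where it was below 0 for 50.5% and 49.2% of all genes. In CB it was below 0 for 6 of 9 members (median -0.06) and for 48.9% of all genes. Choroid plexus markers summed to 7.24 to 4731 CPM in WT and 24.1 to 332 in HET in HIP, and to 3.09 to 46.7 and 4.66 to 261 in CB, and their part was not tested. The smallest p was that of Trem2 in CB, at 1.26 ± 0.179 CPM in HET against 1.55 ± 0.172 in WT (-0.28, SE 0.129, edgeR adjusted p = 0.988).

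Likeness of pattern was measured by Pearson's r of log2 CPM over the 18 group means among 20871 genes, which share libraries and ages, so r is a description. Nearest to Trem2 were Cd53 (0.987), Ptafr (0.986), Ncf1 and Ly86 (0.983 each) and Irf5 (0.981). Nearest to Clec7a were Gpnmb (0.915), Arl11 (0.910), Lyz2 (0.902), Rab1b (0.874) and Tlr2 (0.872). Nearest to the mean of the 10 genes were Cd53 (0.996), Irf5 (0.992), Gpr34 (0.989), Tbxas1 (0.988) and Ptafr (0.986). Among the members, r between Clec7a and another member ran from 0.438 (P2ry12) to 0.786 (Tyrobp), and r of all other pairs from 0.858 to 0.994.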

How the data were processed

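RNA-seq was made from ribosome-depleted total RNA with stranded libraries. Per the labels and the study's methods, the authors trimmed reads (Cutadapt 1.14), aligned them to GRCm38.p5 (STAR 2.5.3a, GENCODE M16) and deposited expected counts per gene from RSEM 1.3. Of these values 5.76% were not whole, and they were rounded. Counts of 15126114 to 44411282 per library set the precision, so genes of few counts (Clec7a) carry more counting error.

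The 10 members and all gene lists were chosen with earlier results of these data known. Named genes are the members, Cul3, genes of the microglia, macrophage, signalling, ligand, complement and border macrophage lists, and the 5 genes most like Trem2, Clec7a and the members' mean. Positions and exon lengths came from GENCODE M21 (53274 of 53465 genes matched), promoters from RefSeq (GRCm38.p6).

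Models were fitted over all genes in R 4.3.3 with edgeR 4.0.16 (filterByExpr with a minimum count of 10 and a total of 15, TMM, quasi-likelihood test, Benjamini-Hochberg adjustment, FDR under 0.1). Each SE was obtained as the absolute log2 fold change over root F. Log2 CPM used a prior count of 2. Genotype was fitted within a period and region, period within a region, and region within a period with mouse as a block, since the regions came from the same mice. Each library is a separate mouse within a dataset. Replicate numbers shared by WT and HET paired the samples in E17.5 CX, where the 6 same-numbered pairs had correlated deviations (0.113 to 0.757, median 0.472, other pairs -0.092), and in no other dataset was every pair over 0.1. Alternatives were upper-quartile normalization, DESeq2 1.42.0, a likelihood ratio test, no low-count filter, RUVs with 3 factors, an Xist covariate, replicate blocks, either genotype for the 2 mice left out, HET in place of WT mice, and leaving out each mouse. A block by mouse-name prefix and the genotype-by-period fit were added after seeing the data. The scripts were tested on simulated data. Some genes of the lists are not reported here.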

Additional observations from a re-analysis of the deposited data

Results flagged for a closer look

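In each of the 180 combinations of gene and group the highest and lowest mice were compared with the rest of their group by Dixon's test, and 13 (7.22%) had a mouse set apart, where chance gives about 9 (1 in 20). Of these, 9 were at the high and 4 at the low end. In P7 CB, HET replicate 1 was high for Tmem119 (5.91 CPM, next 4.03) and C1qa (20.9, next 14.7), and WT replicate 4 was high for C1qc (29.4, next 21.2). In adult HIP, WT replicate 1 was low for C1qb (24.7, next 27.6) and C1qc (26.1, next 29.5), WT replicate 3 was high for Csf1r (105, next 92.7), and in adult CX, HET replicate 4 was high for C1qb (27.7, next 24.4). In E17.5 HIP, WT replicate 5 was high for Cx3cr1 (18.1, next 13.8) and Tyrobp (4.18, next 3.14), HET replicate 5 was high for C1qc (10.2, next 8.57) and HET replicate 4 was low for P2ry12 (2.9, next 5.09). In E17.5 CX, HET replicate 3 was low for C1qa (2.81, next 3.48), and in E17.5 CB, HET replicate 5 was high for C1qb (5.73, next 3.94).

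With all 108 libraries normalized together, those of the 2 adult mice left out gave 6 values above the highest adult library used of their region. Clec7a was at 0.461 CPM in the library labelled WT CX (highest used 0.429) and 0.718 in that labelled HET CB (0.639). Tmem119 was at 21 CPM in the library labelled WT HIP (20.9). C1qa was at 31.8 in that labelled WT CX (30.6), and C1qb at 28.6 in that labelled HET CX (27.7) and 31.7 in that labelled WT HIP (28.7). A further 3 values lay below the lowest adult library used, Clec7a at 0.133 in the library labelled HET CX (0.142), Cx3cr1 at 13 in that labelled WT CB (13.8) and P2ry12 at 42.7 in that labelled HET HIP (43).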

How the results depend on the processing

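The genotype comparison of the 10 genes depended on the test. Against 0 members called in each dataset, the likelihood ratio test called 1 in P7 CX (Clec7a, -1.006, adjusted p = 0.029) and 1 in P35 CB (Tmem119, adjusted p = 0.0346), RUVs with 3 factors called 1 in P7 CX (Clec7a, adjusted p = 0.00595), 1 in P7 CB (Clec7a, -0.881, adjusted p = 0.0972) and 1 in P35 CB (Tmem119, adjusted p = 0.0653), and DESeq2 called 2 in P35 CB (Tmem119, adjusted p = 0.0104, and C1qc, adjusted p = 0.0798). Over all genes the likelihood ratio test called 3 in P7 CX and 150 in P35 CB, RUVs 14 in P7 CX, 64 in P7 CB and 63 in P35 CB, and DESeq2 218 in P35 CB, against 1 in each by the quasi-likelihood test. Over 9 settings, the main fit among them, the adjusted p of Clec7a in P7 CX ran from 0.00595 to 0.782 and its log2 fold change from -1.046 to -0.998. Leaving out single mice called no member, with Clec7a in P7 CX at -1.075 to -0.906 and Trem2 at -0.346 to -0.275. The cause of the differences between tests was not tested. With the 2 adult mice added back, no member was called under either reading of their genotypes, and the calls over all genes in CX, HIP and CB were 2, 1 and 2 with the genotypes of the labels and 0 in each region with those of the sample sheet.

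The replicate block, which fits the pairing of same-numbered samples, called no member in any dataset. In E17.5 CX, where the numbers pair the samples, it raised the calls over all genes from 1 to 55, and in P7 CX it put Clec7a at -0.998 (adjusted p = 0.782). For the counts of other microglia genes it gave 1 lower in CX from P7 to P35 against 2, and without the replicate block 1 was lower in E17.5 HIP than CX against 0.

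With HET in place of WT mice the members' medians kept their signs. From E17.5 to P7 they were 1.722 in CX, 0.996 in HIP and 2.01 in CB, from P7 to P35 they were 1.225 in CX and -0.491 in CB, and in adult CB they were -1.33 against CX and -1.403 against HIP. Small counts of other microglia genes (32 of the homeostatic and shared lists) moved as follows. From P7 to P35, 1 was lower in CX with DESeq2 (2) and 2 were lower in HIP with upper-quartile normalization (1). In E17.5 HIP against CX, 1 was lower with DESeq2 and in HET mice (0). In P35 HIP against CX, 6 were higher with upper-quartile normalization and 8 in HET mice (2), and 3 were lower in HET mice (1). Without single mice, those lower from P7 to P35 numbered 1 to 2 in CX (1 without P7 WT 1 or 5 or P35 WT 3, 4 or 6) and 1 to 2 in HIP (2 without P7 WT 5 or P35 WT 3). In E17.5 those lower in HIP than CX numbered 0 to 1 (1 without WT 2) and those higher in CB than HIP 1 to 2 against 3 (1 without WT 6). In P35 HIP against CX 1 to 4 were higher (4 without WT 1, 1 without WT 4 or 6) and 1 to 2 lower (2 without WT 6). The P7 median of the members was 0.305 to 0.519 in CB against CX and 0.067 to 0.231 against HIP, lowest without WT 4 in both. Without the low-count filter the median over all genes from E17.5 to P7 in CX was 0.157.

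Depth limits Clec7a most: with 1 to 11 counts per library at E17.5 and 4 to 14 in P35 CX it was not tested there.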
